A study of Monodelphis domestica with 25 samples.

Results

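Perfluorooctanoic acid (PFOA) and GenX were set against each other in 4 libraries of cultured whole blood, chosen by their labels from the 25 libraries of the series. Both PFOA libraries collected at 12 h (400 and 800 µM, 1 library each) and both GenX libraries collected at 12 h (1200 µM, numbered R3 and R4) were compared, and the 2 control libraries of the same time (R1 and R2) gave the reference level. The blood came from the LSD strain of Monodelphis domestica, the gray short-tailed opossum, which is kept as a marsupial laboratory model. It was diluted with culture medium and kept in 12-well plates. The solvent dimethyl sulfoxide is stated at 0.1% for treated and control cultures alike, although the control labels read untreated. The titles give only low or high, and low and high PFOA and high GenX were read as the smaller or larger concentration that the protocol lists for each compound. Both PFOA libraries are numbered R2. The compounds therefore differed in concentration and in this number as well as in structure, and these differences cannot be told apart here. The titles give all 10 treatment libraries the same identifier before this number, in the form of the 3 identifiers used in the time course. The labels do not say what the identifier or the number stands for, and separate animals are not stated, so p-values measure only the spread between these libraries, which may be technical.

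PFOA is a perfluorinated carboxylic acid, a surfactant that persists in the body and binds serum proteins. GenX is the ammonium salt of a related perfluorinated acid whose chain is shorter, branched and interrupted by an ether oxygen, and it was made as a replacement for PFOA. Both compounds are known to activate the nuclear receptor PPAR alpha, a regulator of fatty acid breakdown, in rodent liver. Whole blood holds red cells, platelets and several classes of white cells that respond to handling and culture. The deposited table names nearly all transcripts by Ensembl identifier, and 0 of 22049 identifiers occurred in the reference gene table, so no gene name, function or sequence is attached to them, and the tissue and the blood cell types were not checked against marker genes.

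Total counts were 4027470 and 2412085 with 400 and 800 µM PFOA, 6433771 and 3654215 in GenX R3 and R4, and 8902853 and 11685427 in the controls. Levels are given as CPM, in which each library is brought to the same total after TMM scaling, and a floor of 3 counts corresponded to 0.712 and 1.28 CPM in the PFOA libraries and to 0.462 and 0.897 CPM in the GenX libraries. With every library thinned to 2412085 counts, 13574 and 13329 features had at least 1 count with 400 and 800 µM PFOA, 13287 and 13804 in GenX R3 and R4, and 13259 and 13402 in the controls, so the arms overlapped in this measure. The 10 most abundant features held 5.82 and 9.84% of the counts with 400 and 800 µM PFOA, 5.56 and 7.49% in GenX R3 and R4, and 5.17 and 4.61% in the controls. With 2 libraries against 2, an exact permutation test cannot go below p = 0.33, so these values carry no test. Of values from 1 to 12 counts, 68.4 to 72.7% were even in each library, so neighbouring counts often came as a unit and intervals from counting error understate the spread.

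The GenX libraries differed from each other about as much as libraries of different compounds did, or more, depending on the measure. Among 9261 transcripts averaging 5 CPM or more over the 6 libraries, 6.05% differed by more than 2-fold between the PFOA libraries and 8.62% between the GenX libraries, on the log2(CPM + 1) scale. Across compounds the share was 3.67% for 400 µM PFOA against GenX R3, 8.48% for 400 µM PFOA against GenX R4, 8.90% for 800 µM PFOA against GenX R3 and 8.70% for 800 µM PFOA against GenX R4. The median absolute log2 difference over the same transcripts was 0.356 between the GenX libraries and 0.274 between the PFOA libraries, against 0.274 to 0.345 across compounds. The controls differed from each other in 1.27% of transcripts. Of the 4 treated libraries, 400 µM PFOA and GenX R3 lay nearest to the controls (2.76 to 4.48%), and 800 µM PFOA and GenX R4 lay farthest from them (8.80 to 10.8%).

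**Figure D1:**
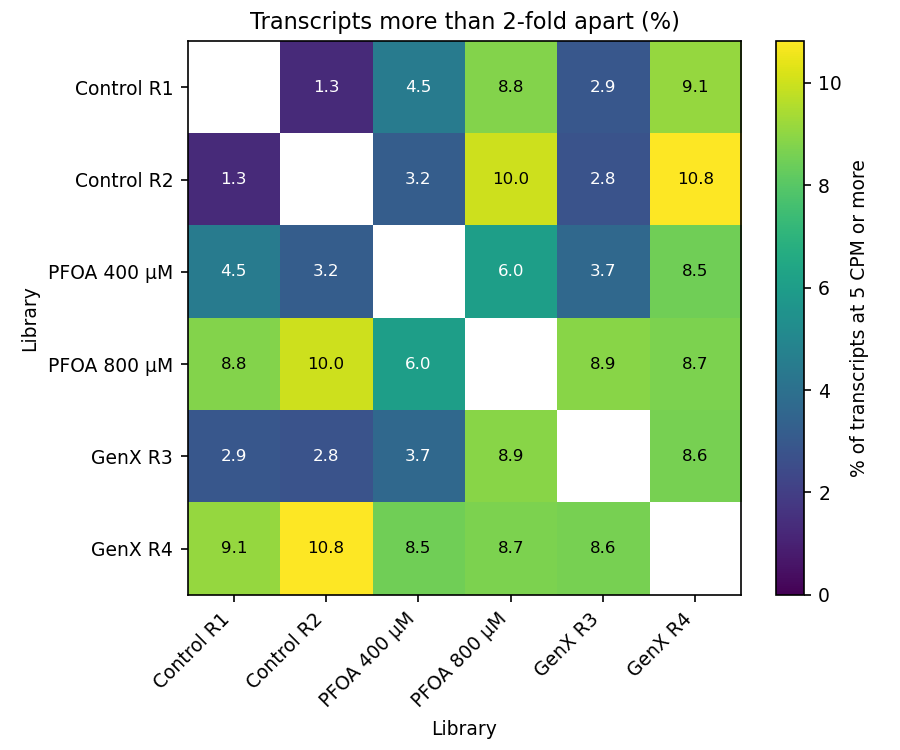
Each square gives the percentage of transcripts (of 9261 with a mean of at least 5 CPM) that differed by more than 2-fold between the libraries named on the axes. The GenX libraries differed from each other in 8.62% and the PFOA libraries in 6.05%, within the range of 3.67 to 8.90% between compounds.

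By rank correlation too, 400 µM PFOA and GenX R3 were the nearest pair across compounds. At equal depth, Spearman's rho over the tested transcripts was 0.960 between the PFOA libraries, 0.944 between the GenX libraries and 0.978 between the controls. Across compounds it was 0.966 between 400 µM PFOA and GenX R3, 0.947 between 400 µM PFOA and GenX R4, 0.950 between 800 µM PFOA and GenX R3 and 0.949 between 800 µM PFOA and GenX R4. These describe the libraries across transcripts, which share a library and are not replicates.

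Against this spread, 6 of 11601 tested transcripts (0.0517%) differed between PFOA and GenX, and all 6 were lower with PFOA. Calls came from the quasi-likelihood F test of edgeR in 1 model of the 6 libraries at 12 h, with p-values adjusted by Benjamini-Hochberg over all tested transcripts, and an adjusted p under 0.05 made a call. No transcript was called higher (0%), while DESeq2 called 4 higher and 12 lower. At an unadjusted edgeR p under 0.05, 306 were higher and 458 lower, together 6.59% of all tested, a share little above that cut-off. Both PFOA libraries lay below both GenX libraries for 2033 transcripts (17.5%) and above both for 1866 (16.1%). Among 9666 transcripts whose higher arm averaged 5 CPM or more, 13 were at least 8-fold lower with PFOA without overlap and 1 was at least 8-fold higher. No transcript at such a level in 1 compound was without a count in both libraries of the other.

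**Figure D2:**
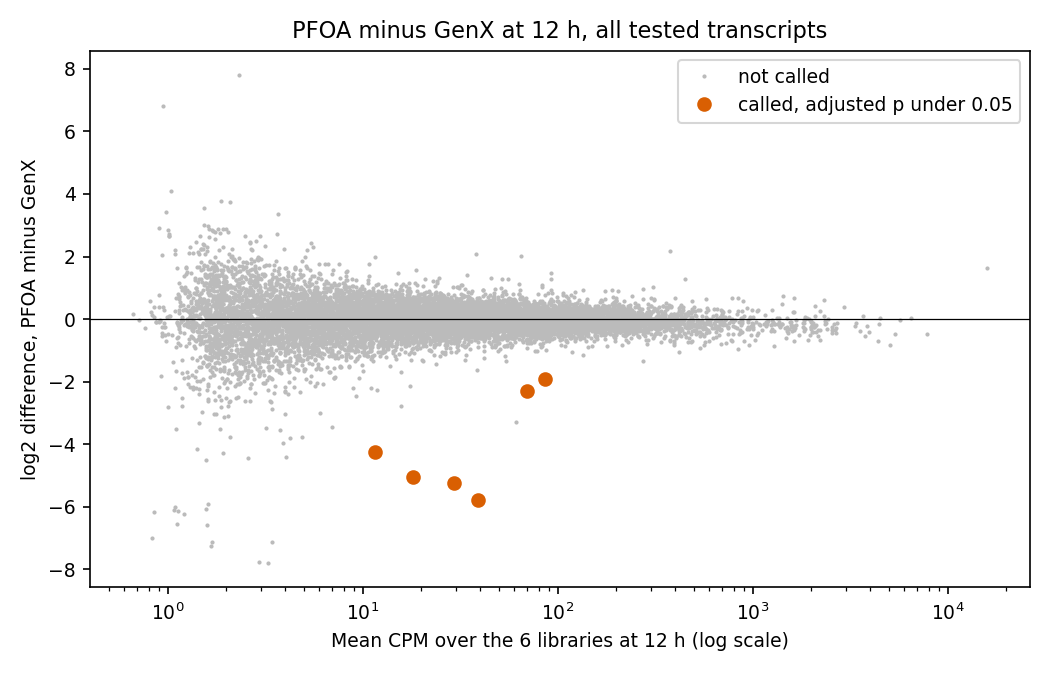
The log2 difference, PFOA minus GenX, of each of 11601 tested transcripts (y axis) is plotted against its mean CPM over the 6 libraries at 12 h (x axis, log scale). The 6 called transcripts, in orange, all lie below 0, from -1.91 to -5.79.

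ENSMODT00000001267 had the greatest of these differences and was nearly absent with PFOA. It had 4 and 2 counts with 400 and 800 µM PFOA, 269 and 209 counts in GenX R3 and R4, and 576 and 792 in the controls. On the CPM scale this was 0.950 and 0.856 with PFOA, 41.4 and 62.5 with GenX, and 65.6 and 63.3 in the controls. The PFOA libraries held 1.89% of the GenX level (95% exact interval 0.689 to 4.14, counting error only). The log2 difference, PFOA minus GenX, was -5.79 (SE 0.418, 95% interval -6.70 to -4.87, adjusted p = 6.47e-05 by edgeR). This SE and interval were worked back from the F statistic. On the log2 scale the interval is narrower than the exact one, so at these few PFOA counts it understates the uncertainty. GenX and control levels of this transcript did not separate by the test (log2 difference -0.32, interval -0.86 to 0.22, adjusted p = 0.798).

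ENSMODT00000018652 lay on opposite sides of the controls with the 2 compounds. Its levels were 1.90 and 1.71 CPM with 400 and 800 µM PFOA (8 and 4 counts), 16.4 and 15.7 CPM in the controls, and 62.1 and 78.9 CPM in GenX R3 and R4. It lay below the controls with PFOA (log2 difference -3.12, SE 0.370, adjusted p = 0.00567 by edgeR) and above them with GenX (2.13, SE 0.257, adjusted p = 0.0164). With only the GenX and control libraries in the model, 0 transcripts were called between GenX and control. Between the compounds the log2 difference was -5.25 (SE 0.359, interval -6.03 to -4.47, adjusted p = 6.47e-05).

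The transcript with the third greatest difference had the same order of groups. It was at 0.950 and 1.28 CPM with PFOA (4 and 3 counts), at 14.7 and 18.2 CPM in the controls and at 28.7 and 45.1 CPM with GenX. PFOA lay below GenX (log2 difference -5.06, interval -6.11 to -4.02, adjusted p = 0.000835 by edgeR) and below the controls (-3.91, adjusted p = 0.00621). Its GenX level did not pass against the controls (1.15, interval 0.45 to 1.85, adjusted p = 0.31).

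ENSMODT00000003531 and the transcript with the fifth greatest difference were low with PFOA and near the controls with GenX. ENSMODT00000003531 was at 0.950 and 0.856 CPM with PFOA (4 and 2 counts), at 15.6 and 19.7 CPM with GenX and at 17.5 and 15.02 CPM in the controls. Its PFOA libraries held 5.398% of the GenX level (95% exact interval 1.95 to 12.0). The log2 difference was -4.23 (interval -5.33 to -3.13, adjusted p = 0.00573 by edgeR), and here too the exact interval is the wider. The fifth was less far below GenX, at 18.0 and 18.4 CPM with PFOA, 102.6 and 77.4 CPM with GenX and 88.7 and 112.4 CPM in the controls. Its log2 difference between the compounds was -2.31 (interval -2.87 to -1.75, adjusted p = 0.00334). The log2 differences of GenX from control were 0.11 (adjusted p = 0.966) and -0.16 (adjusted p = 0.919).

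ENSMODT00000008287 was the called transcript that PFOA did not lower against control. It was at 30.2 and 34.1 CPM in the controls, 42.5 and 52.2 CPM with 400 and 800 µM PFOA, and 144.4 and 211.7 CPM in GenX R3 and R4. It lay above the controls with GenX (log2 difference 2.46, SE 0.247, adjusted p = 0.0047 by edgeR), a call that was absent with only the GenX and control libraries. Its PFOA difference from control did not pass (0.55, interval 0.01 to 1.09, adjusted p = 0.505). Between the compounds the log2 difference was -1.91 (interval -2.46 to -1.37, adjusted p = 0.0118).

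**Figure D3:**
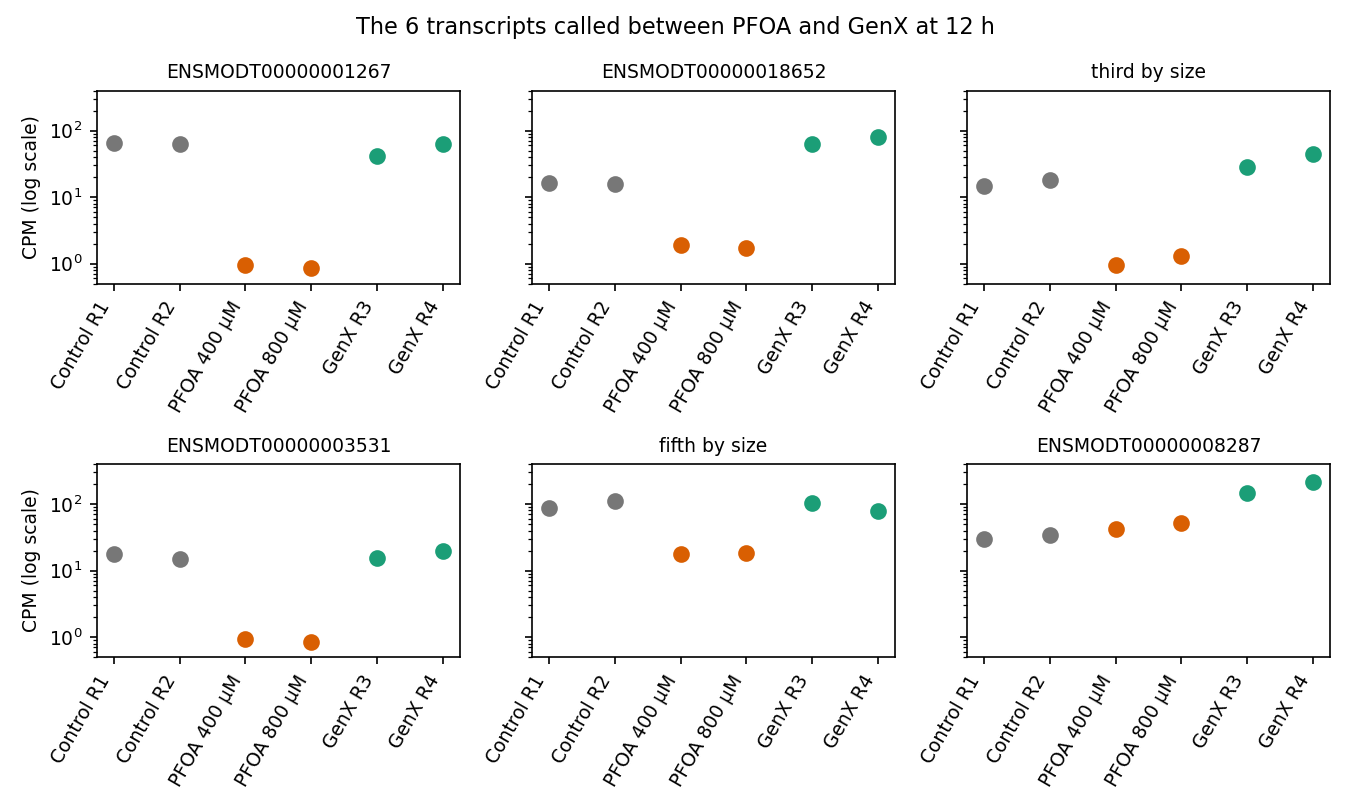
Each panel shows 1 of the 6 called transcripts as CPM (y axis, log scale) in each library at 12 h, with controls in grey, PFOA in orange and GenX in green. PFOA lies below both controls in 5 panels and above them in that of ENSMODT00000008287, and GenX lies above both controls in 3.

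The PFOA libraries differed by at most 1.35-fold in these 6 transcripts, but they entered the test as replicates, so a call required them to be alike. In ENSMODT00000001267, the third and ENSMODT00000003531 they held only 2 to 4 counts each. That is near the floor of 3 counts, where such a ratio says little about the concentrations. The calls differed in how far they depended on single libraries. ENSMODT00000001267 and ENSMODT00000018652 passed without any 1 of the 6 libraries. The third lost its call without 400 µM PFOA (adjusted p = 0.088). ENSMODT00000003531 lost its call without 400 µM PFOA (0.205) or 800 µM PFOA (0.13), as did the fifth (0.205 and 0.187) and ENSMODT00000008287 (0.313 and 0.299). Each of these leaves 1 PFOA library, which is assumed to vary like the other groups, and the log2 differences of the 6 then ranged from -1.77 to -5.88. Without 800 µM PFOA 3 transcripts were called, all lower, and without 400 µM PFOA 4 were called, 2 higher and 2 lower. Without GenX R3 22 were called, 21 of them lower, and with no filter on low counts 64 were called, 25 higher and 39 lower. In a model of all 10 treatment libraries with the replicate number as a block, none of the 6 passed (adjusted p = 0.676 for ENSMODT00000001267 and 1 for the other 5) and 0 transcripts were called. GenX R4 is the only library with its number, so the block term fits it by itself. GenX then rests on R3, which joins the other libraries only through a 24 h control. The missing calls therefore do not settle how far the 6 depend on the number.

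Each PFOA library was also set by itself against GenX, while the concentrations, with 1 library each, were not tested against each other. With PFOA low and high as separate groups, the spread came only from the control and GenX libraries. At 400 µM 2 transcripts were called (0.0172%), ENSMODT00000001267 and ENSMODT00000018652, with log2 differences of -5.73 (adjusted p = 0.0177 by edgeR) and -5.20 (adjusted p = 0.0177). At 800 µM 4 were called (0.0345%), the same 2 (-5.88 and -5.34, adjusted p = 0.0258 each) and 2 that were higher. Without GenX R3 these counts were 272 and 96, and without GenX R4 61 and 422, when 1 GenX library is left and only the controls give the spread. Without the control R1 they were 4 and 10.

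The 2 transcripts higher at 800 µM PFOA than with GenX had lower levels at 400 µM. ENSMODT00000014426 was at 1324 CPM with 800 µM PFOA and 283 CPM with 400 µM, against 149 and 210 CPM in GenX R3 and R4 and 173 and 125 CPM in the controls. ENSMODT00000038822 was at 206 and 49.4 CPM with 800 and 400 µM PFOA, 27.3 and 35.3 CPM with GenX and 39.9 and 32.2 CPM in the controls. Both lay above GenX in both PFOA libraries, as did 16.1% of all tested, and their choice already required this at 800 µM. The log2 differences from GenX were 2.89 and 2.73 at 800 µM (adjusted p = 0.0258 each by edgeR) and 0.66 and 0.67 at 400 µM (intervals -0.07 to 1.39 and -0.00084 to 1.34, adjusted p = 1 each). In untreated blood of the separate time course both fell from fresh blood to 72 h of culture (log2 differences -7.89 and -9.12, adjusted p = 0.00615 and 0.00307 by edgeR). Both varied widely there between libraries of the same time. At 12 h ENSMODT00000014426 ran from 1126 to 35586 CPM and ENSMODT00000038822 from 638 to 14504 CPM (n = 3), while the calls above rest on 1 library at 800 µM.

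Toward higher levels with PFOA, the 2 transcripts with the smallest p did not pass. ENSMODT00000022153 was at 126.8 and 225.7 CPM with 400 and 800 µM PFOA, 62.7 and 63.4 CPM with GenX, and 34.7 and 38.5 CPM in the controls. It lay above the controls with PFOA (log2 difference 2.26, SE 0.271, adjusted p = 0.00567 by edgeR), and its difference of PFOA from GenX was 1.48 (interval 0.89 to 2.06, adjusted p = 0.216). ENSMODT00000035608 was at 385 and 473 CPM with PFOA, 230 and 194 CPM with GenX, and 282 and 278 CPM in the controls (PFOA minus GenX 1.01, interval 0.57 to 1.46, adjusted p = 0.376). Both were chosen among transcripts for which both PFOA libraries lay above both GenX libraries (16.1% of all tested), so their lack of overlap is no support. DESeq2 called both (adjusted p = 0.000786 and 0.00198).

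Each compound's own difference from the 12 h controls was small in number of transcripts. With PFOA 10 transcripts were called (0.0862%), 9 lower and 1 higher, and with GenX 2 (0.0172%), both higher. These directions moved with the method: DESeq2 called 42 higher and 45 lower with PFOA and 131 higher and 9 lower with GenX, and no filter gave 95 and 104 with PFOA and 226 and 40 with GenX. These comparisons share the controls, so their values stand side by side only. Of the 9 transcripts lower with PFOA, 5 were also called against GenX, as were 0.0517% of all tested. Both comparisons use the same 2 PFOA libraries, so low values there enter both calls. Of the 9, 6 had a mean GenX level between PFOA and control, and 3 had a mean GenX level above the controls. Their log2 differences from control ran from -6.11 to -1.59 with PFOA and from -1.88 to 2.13 with GenX. The PFOA count was 1 without 800 µM PFOA, 5 without 400 µM, 2 without the control R1, and 88 and 89 without GenX R3 and R4. The GenX count was 0 without 400 µM PFOA and 1 without 800 µM PFOA. Without a control or a GenX library, a compared group rests on 1 library, and the GenX count then varied widely with the library left.

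The 6 called transcripts were also followed in untreated blood of the time course, a separate table of 15 libraries with its own scaling. The same 3 identifiers recur at every time, but the model held only time, so this pairing was not used. In the time course 4 of the 6 rose from fresh blood to 12 h and 5 of the 6 rose from fresh blood to 72 h, as did 4.06 and 24.9% of all 15524 transcripts tested. ENSMODT00000001267 went from 0.369 CPM ± 0.372 (SD, n = 3) at 0 h to 118.9 CPM ± 26.5 at 12 h and 3385 CPM ± 1650 at 72 h. ENSMODT00000018652 went from 5.73 CPM ± 1.30 to 197 CPM ± 88.5 and 1175 CPM ± 735 at the same times. ENSMODT00000008287 reached 1191 CPM ± 268 at 12 h from 5.61 CPM ± 2.46 and was at 932 CPM ± 428 at 72 h. The rises to 12 h had log2 differences of 8.45, 5.10 and 7.73 (adjusted p = 0.000272, 0.000394 and 4.67e-05 by edgeR). ENSMODT00000003531 likewise rose (8.17, adjusted p = 8.33e-05). The third did not pass at 12 h (0.99, adjusted p = 0.16) but rose by 72 h (3.72, adjusted p = 3.45e-05). The fifth passed at neither time (0.44 and 1.45, adjusted p = 0.689 and 0.0526). Levels in this table were not comparable with those of the treatment experiment. At 12 h untreated ENSMODT00000008287 was at 1191 CPM here and at 30.2 and 34.1 CPM in the treatment controls, and ENSMODT00000003531 was at 217 CPM here and at 17.5 and 15.02 CPM there.

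**Figure D4:**
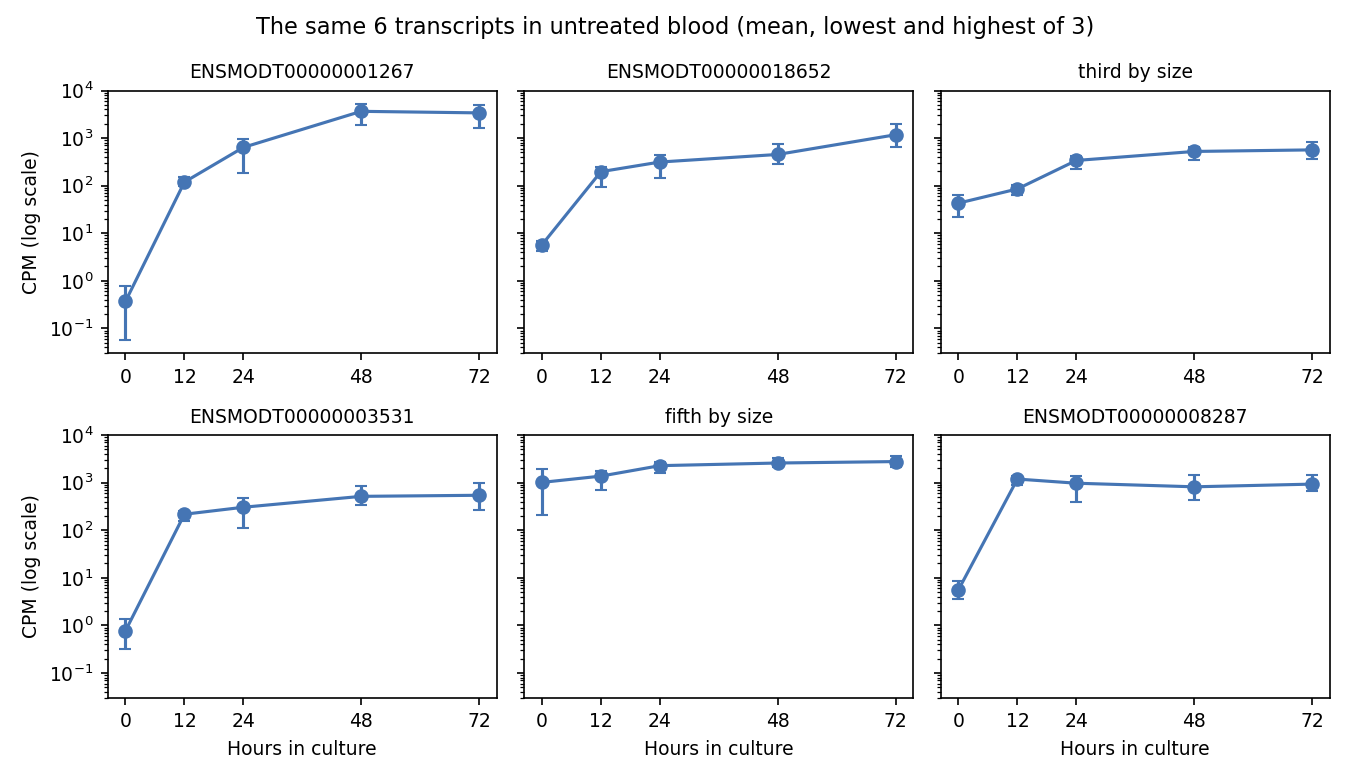
Each panel shows 1 of the 6 called transcripts in untreated blood as CPM (y axis, log scale) against hours in culture, with the mean of 3 libraries as points and the lowest and highest library as bars. ENSMODT00000001267, ENSMODT00000018652, ENSMODT00000003531 and ENSMODT00000008287 rose from 0 to 12 h, and the third rose by 72 h.

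Of the lists taken from the time course, that of the transcripts most abundant late in culture had the lowest median with PFOA relative to GenX. Of the 20 transcripts most abundant at 72 h, both PFOA libraries lay below both GenX libraries for 11 (55%) and above both for 1 (5%), against 17.5 and 16.1% of all tested, and 2 were called, both lower, against 0.0517% of all tested. Their median log2 difference, PFOA minus GenX, was -0.44, against -0.02 over all 11601 tested. The median difference from control was -0.38 and -0.50 with 400 and 800 µM PFOA and -0.17 and -0.07 in GenX R3 and R4, on the log2(CPM + 1) scale. Without GenX R4 the median difference between the compounds was -0.19.

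The medians of the other 5 lists lay nearer to 0. The 493 tested transcripts that rose from 0 to 12 h in untreated blood had a median PFOA minus GenX of -0.08. Of these 493, 4 were called lower, against 6 (0.0517%) of all tested, and they are the same 4 whose rise to 12 h is given above. For 117 of the 493 (23.7%, against 17.5% of all tested) both PFOA libraries lay below both GenX libraries, and for 55 (11.2%, against 16.1%) above. The 442 that fell from 0 to 12 h had a median of -0.15 and no called member, and their median difference from control was higher in 800 µM PFOA (0.29) and GenX R4 (0.39) than in 400 µM PFOA (0.11) and GenX R3 (0.07). Without GenX R4 the median of that list was 0.15, in the opposite direction. The 2924 higher and 3174 lower at 72 than at 0 h had medians of -0.03 each. The 20 most abundant in fresh blood had a median of -0.03, with 5 members (25%) below and 2 (10%) above GenX without overlap, near the 17.5 and 16.1% of all tested. They held 5.52 and 9.20% of the counts with 400 and 800 µM PFOA and 4.87 and 6.34% in GenX R3 and R4.

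**Figure D5:**
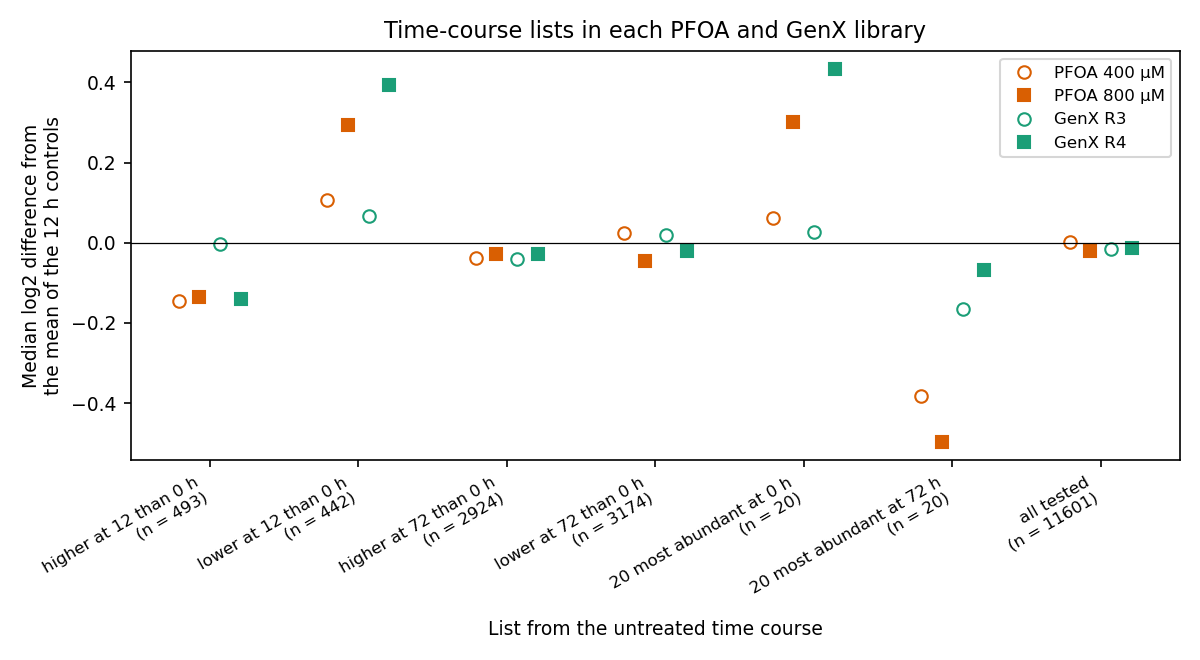
For each list from the untreated time course (x axis), points give the median log2 difference of each PFOA and GenX library from the mean of the 12 h controls (y axis). In the 20 transcripts most abundant at 72 h, PFOA lies at -0.38 and -0.50 and GenX at -0.17 and -0.07, while over all tested transcripts each library lies near 0.

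Of the features that have a name instead of an identifier, 6 were tested and none passed between the compounds. Rsx, the noncoding RNA that coats the inactive X chromosome of female marsupials, was at 2.14 and 1.71 CPM with 400 and 800 µM PFOA, 2.16 and 12.9 CPM in GenX R3 and R4 and 0.456 and 1.28 CPM in the controls (PFOA minus GenX -1.90, interval -4.19 to 0.38, adjusted p = 0.772 by edgeR). GenX R4 stood apart with 43 counts, and the other 5 libraries held 4 to 16. Without GenX R4 the log2 difference was -0.14. Phlda2_trans, named after an imprinted gene that restrains placental growth in eutherians, was at 10.9 and 33.8 CPM with PFOA, 24.2 and 38.0 CPM with GenX and 14.6 and 6.31 CPM in the controls (-0.51, interval -1.63 to 0.61, adjusted p = 0.901). Fsnt3 was at 2.85 and 2.57 CPM with PFOA and 6.16 and 10.8 CPM with GenX (-1.61, interval -3.12 to -0.11, adjusted p = 0.748 by edgeR). It did not overlap between the compounds, and 17.5% of all tested likewise lay lower with PFOA without overlap. Cdkn1c_trans, named after an imprinted inhibitor of the cell cycle, had 4 and 0 counts with PFOA and 24 and 0 with GenX. Tnsf1 and Fsnt1 overlapped between the compounds (adjusted p = 0.973 and 0.915). H19_trans, Igf2_trans, Ins2_trans and Peg10_trans had at most 9 counts in any library and were not tested.

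For most transcripts the data bound the difference between the compounds only loosely. The 95% interval of PFOA minus GenX reached a median of 0.71 log2 units above and below the estimate. It lay within 2-fold of no difference for 47.8% of tested transcripts and within 4-fold for 78.7%. A missing call therefore does not show that the compounds acted alike.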

How the data were processed

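Poly(A) RNA of cultured whole blood was sequenced with a directional kit, per the labels' protocols. The authors deposited 1 table of raw counts per transcript for each experiment, as whole numbers without normalization. The submitters' processing notes list Trimmomatic 0.36, FastQC 11.5, Bowtie2, TopHat2 2.1.1, edgeR, R 4.1.2 and bedtools 2.30.0, with no role or order. Build, annotation and use of strand were not given in the sources used here, and overlapping, antisense and near-identical transcripts are uncertain. Of 22063 features, 4 were upper-case copies with identical counts and were removed.

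The 6 libraries at 12 h were fitted in 1 model by arm with edgeR 4.0.16 (R 4.3.3): TMM, filterByExpr (minimum count 10), quasi-likelihood F test, Benjamini-Hochberg adjustment over 11601 transcripts. Each SE was taken as the absolute log2 difference divided by the square root of F. The 95% intervals extend from the estimate by that SE times a t quantile. Where a group held few counts, they can be narrower than counting error alone. The script was tested on simulated data. The 24 h libraries entered only the 10-library alternatives. Time-course lists came from edgeR on 15 untreated libraries (15524 tested), with time as the only factor and no term for the identifier. Named transcripts were the 2 greatest called differences per direction and comparison averaging 5 CPM or more in the higher arm and without overlap, or, with no call between the compounds in a direction, the 2 smallest p. Other called transcripts are given by rank. Alternatives were DESeq2 1.42.0, RLE factors, no filter, other sets of libraries, the replicate number as a block, thinning, removal of 20 abundant transcripts, halved counts and leaving out each library. The comparison, the lists and the tests were chosen with earlier results of these data known. Gene lists and cell type markers by symbol could not be used without gene names.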

Additional observations from a re-analysis of the deposited data

How the results depend on the processing

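The numbers do not pair the libraries at 12 h, where PFOA and GenX share none, and GenX R4 is the only library with its number. With all 10 libraries, arm and time, 3 transcripts were called between the compounds, while adding the number as replicate block gave 0 calls (the 6 log2 differences were then -1.58 to -5.05, and Phlda2_trans, Rsx and Fsnt3 turned to 0.39, 0.36 and 0.47). DESeq2 called 16 between the compounds, 87 for PFOA and 140 for GenX against control, and no filter gave 64, 199 and 266, and 20 and 68 for low and high PFOA against GenX. With only the libraries of the 2 groups, PFOA against control gave 85 and GenX 0. Thinned libraries gave 1 for GenX against control and 7 for high PFOA against GenX. Leaving out 1 library gave 3 to 22 between the compounds, 1 to 89 for PFOA and 0 to 476 for GenX against control, and 3 to 272 and 5 to 422 for low and high PFOA against GenX. The 6 called transcripts kept their direction in all 15 alternatives. For each of them both PFOA libraries lay below both GenX libraries, so refits of the 12 h libraries alone could hardly turn it. Only the models of all 10 libraries could. ENSMODT00000001267 and ENSMODT00000018652 missed the threshold only with the replicate block. ENSMODT00000003531 also missed it in the 4 libraries alone (adjusted p = 0.0681), and the third, the fifth and ENSMODT00000008287 with all 10 libraries (0.302, 1 and 0.101).

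List medians without 1 PFOA or GenX library were -0.12 to -0.01 and -0.35 to 0.15 (higher and lower at 12 h), -0.0494 to 0.0186 and -0.0904 to 0.0192 (higher and lower at 72 h), -0.12 to 0.14 (20 most abundant at 0 h) and -0.39 to -0.19 (at 72 h). With at least 4-fold changes in the time course, medians were -0.19, -0.40, -0.14 and -0.06 for the first 4 lists. Leaving out 1 library also turned the sign of Phlda2_trans (-1.47 to 0.14), Tnsf1 (-1.18 to 1.33, and -0.02 without GenX R4), Fsnt1 (-0.59 to 1.73) and Cdkn1c_trans (-6.74 to 4.88). The cause of these changes was not tested.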
